A study of Mus musculus with 4 samples.

Results

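Both arms of miR-132 and both arms of miR-212, which are processed from a pair of hairpins at one locus, were followed in small RNA libraries from primary cultures of cortical neurons from WT embryos and embryos of TgAD mice. The rule takes the members by name, though the locus and the lists of other miRNA below were picked with earlier results of these data known. The members are 4 of the 1966 mature miRNA listed in each count table. The neurons were taken at E16.5 (embryonic age in days) according to the sample labels, each embryo was cultured separately and genotyped, and the cells were kept for 5 days in vitro in differentiating medium without further treatment. There were 2 libraries per genotype, each from a separate embryo culture. TgAD neurons carry the APP/PS1 transgenes, APP with the Swedish mutations and presenilin 1 without exon 9, which WT neurons lack. Mouse prion promoter sequence drives both genes, so transgene product is made chiefly by neurons of the brain and spinal cord. The comparison asks which miRNA differ between neurons of this model of Alzheimer's disease and WT neurons.

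miRNA are short RNA cut from hairpin precursors, and each hairpin can give a mature strand from its 5′ side (5p) and one from its 3′ side (3p). Bases 2 to 8 of the mature strand, the seed, pair with target mRNA and set most of the targets. miR-132 and miR-212 are known as miRNA whose shared primary transcript is induced by neuronal activity and neurotrophins through the transcription factor CREB, and miR-132-3p is known for its effect on dendrite growth and for its low level in the brain in Alzheimer's disease.

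The mature sequences, from RefSeq annotation of GRCm38.p6, are shown because they tell which of the 4 members can act on the same targets and whether reads of one can be taken for another. They are written 5′ to 3′ with the seed in capitals.
mmu-miR-132-3p: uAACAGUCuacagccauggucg
mmu-miR-212-3p: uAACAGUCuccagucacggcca
mmu-miR-132-5p: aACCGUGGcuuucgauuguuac
mmu-miR-212-5p: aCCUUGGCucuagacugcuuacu
The 3p arms had the same seed, AACAGUC, and were equal at 17 of 22 positions. Counted from 1 at the 5′ end, with the base of mmu-miR-132-3p first, the differences are A10C, C14U, U17C, U20C and G22A. The 5p arms had different seeds and were equal at 9 of 22 positions. Of the 1966 listed miRNA, 1675 could be matched to a RefSeq mature sequence, and none of these outside the locus had the seed of a member. The longest stretch that a member shared exactly with any other hairpin was 9 to 11 nucleotides. The authors mapped reads without mismatch, and the 3p arms differ at 5 positions, so a full-length read of one does not match the other.

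Both hairpins lie on the plus strand of chromosome 11, Mir212 at chr11:75173388-75173478 and Mir132 at chr11:75173682-75173747, with 203 nucleotides between them. They are shown with the mature arms in capitals, so that the place of each strand in its precursor can be seen.
Mir212 hairpin: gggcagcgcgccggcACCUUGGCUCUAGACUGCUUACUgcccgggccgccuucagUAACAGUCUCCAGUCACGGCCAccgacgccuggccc
Mir132 hairpin: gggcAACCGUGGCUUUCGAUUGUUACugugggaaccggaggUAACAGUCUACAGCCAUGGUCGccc
In GENCODE M21 both lie in intron 1 (75172598 to 75173977) of 1700016P03Rik (ENSMUSG00000085609.1), a processed transcript with 3 exons that spans 75172560 to 75177633 on the same strand. No other annotated miRNA hairpin overlaps them on either strand. The nearest protein-coding genes are Ovca2 and Hic1, both on the minus strand.

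The depth was 2070204 and 2752599 reads on miRNA for WT, and 2758525 and 4811010 reads for TgAD. The 4 members together took 0.168% to 0.380% of these reads. Log2 levels correlated at 0.989 between the WT libraries, 0.986 between the TgAD libraries and 0.952 to 0.963 across genotypes. miR-99a-5p alone took 16% and 17% of the WT reads and 27% and 32% of the TgAD reads. Of the neuronal markers, miR-9-5p and miR-9-3p had 0 reads in every library, a count that allows up to 3 reads, and miR-124-3p had 1 to 7 reads, so these defining markers were absent or nearly so from the counts. miR-128-3p was well covered with 18305 to 84058 CPM, reads scaled to a common library size that was normalized by edgeR's TMM method. The handling of reads that map to several loci is not stated by the authors.

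The genotype of 1 library was not the same in all files. A table of normalized values was deposited beside the count tables, and whole reads could be recovered from it for 674 miRNA. The reads in its column named WT_1 were equal to the counts of the library labelled TgAD replicate 1 for 100% of the 674 miRNA. Its column WT_2 was equal to WT replicate 1, and its column TR_1 to TgAD replicate 2. Its column TR_2 was equal to no count table, with 1.78% to 4.45% of values shared. No column was equal to WT replicate 2, with 2.82% to 5.49% of values shared. The genotypes below are those of the sample labels. Because the files differ on TgAD replicate 1, the tests, ratios, sums, profiles and lists are also given without it. Over the 496 miRNA tested below, its log2 levels correlated at 0.986 with TgAD replicate 2, and at 0.962 and 0.963 with the WT libraries.

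Both arms of miR-132 were higher in TgAD neurons, about 1.9-fold, and neither arm of miR-212 passed the same test. The increase of miR-132 was larger in TgAD replicate 1 than in TgAD replicate 2, and without TgAD replicate 1 no member passed.

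mmu-miR-132-3p, the main strand of its hairpin in these libraries, had 2228 and 2562 WT reads, and 5814 and 5640 TgAD reads. Its level was 948 and 880 CPM for WT, and 2119 and 1402 CPM for TgAD. Both TgAD libraries lay above both WT libraries, and TgAD replicate 1 was the highest. The mean rose from 914 ± 48.3 CPM (SD, n = 2) to 1761 ± 507 CPM (SD, n = 2), which moved it from rank 84 to rank 57 among the listed miRNA. The log2 fold change was 0.95 (standard error 0.247, 95% interval 0.35 to 1.54, padj = 0.0377 by the quasi-likelihood test of edgeR, adjusted over all tested miRNA).

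mmu-miR-132-5p, the opposite strand of the same hairpin, had 1614 and 1645 WT reads, and 3968 and 3994 TgAD reads. Its level was 687 and 565 CPM in WT and 1446 and 993 CPM in TgAD, again without overlap and with TgAD replicate 1 on top. Its mean was 626 ± 86.2 CPM in WT against 1220 ± 320 CPM in TgAD (SD, n = 2 each). The log2 fold change was 0.96 (standard error 0.247, 95% interval 0.37 to 1.56, padj = 0.0369, edgeR).

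mmu-miR-212-3p, which shares the seed of mmu-miR-132-3p, was far less abundant, with 172 and 160 WT reads, and 418 and 230 TgAD reads. Its level was 73.2 and 55.0 CPM in WT and 152 and 57.2 CPM in TgAD. TgAD replicate 1 was the highest library, but TgAD replicate 2 lay between the WT libraries, so the genotypes overlapped. The means were 64.1 ± 12.9 and 105 ± 67.3 CPM (SD, n = 2 each). The log2 fold change of 0.70 had a standard error of 0.464 and a 95% interval of -0.42 to 1.82 that includes no change (padj = 0.324, edgeR).

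mmu-miR-212-5p had 187 and 250 WT reads, and 287 and 519 TgAD reads. Its level was 79.6 and 85.9 CPM in WT and 105 and 129 CPM in TgAD. The genotypes did not overlap, and here TgAD replicate 2 and not replicate 1 was the highest library. The means were 82.7 ± 4.43 and 117 ± 17.3 CPM (SD, n = 2 each). The log2 fold change of 0.50 had a standard error of 0.227 and a 95% interval of -0.05 to 1.05 (padj = 0.165, edgeR).

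**Figure D1:**
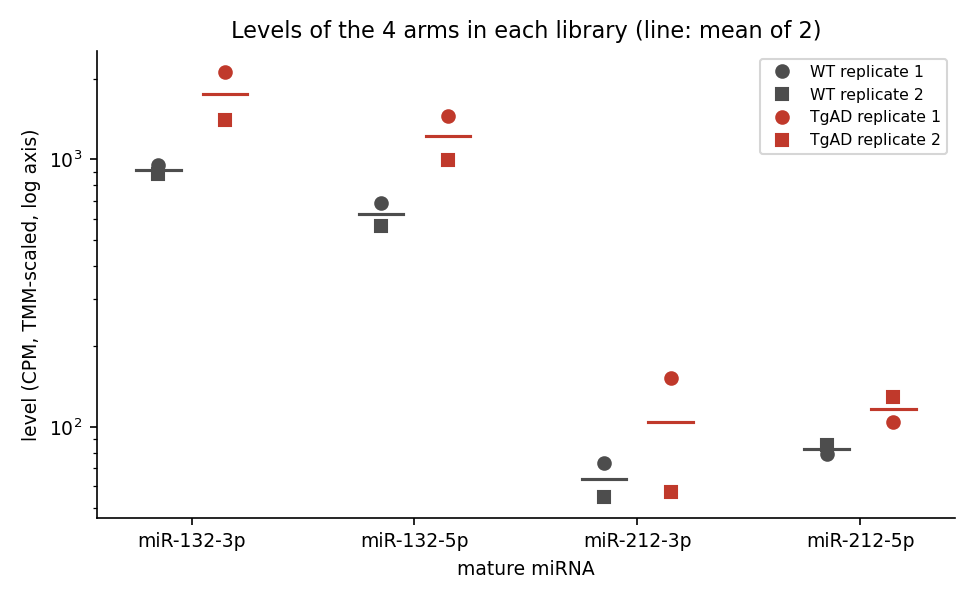
Level of each mature arm in each library (CPM after TMM scaling, log axis), with WT in grey, TgAD in red, circles for replicate 1, squares for replicate 2 and a line at the mean of 2 libraries. Both arms of miR-132 lie higher in both TgAD libraries than in either WT library, whereas the TgAD libraries lie apart for miR-212-3p, at 152 and 57.2 CPM.

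In all, 2 of the 4 members passed a log2 fold change over 0.6 with padj under 0.1, both of them higher in TgAD neurons. By comparison, 15.7% of the 496 tested miRNA passed these cutoffs as higher, and 17.3% as lower, so a call at this level was common in these libraries. None of the 4 passed the stringent cutoffs, a log2 fold change over 1 with padj under 0.01, which 1.41% of tested miRNA passed as higher. For 3 of the 4 members both TgAD libraries lay above both WT libraries, as they did for 30.6% of tested miRNA. The median log2 fold change over all tested miRNA was 0.03.

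**Figure D2:**
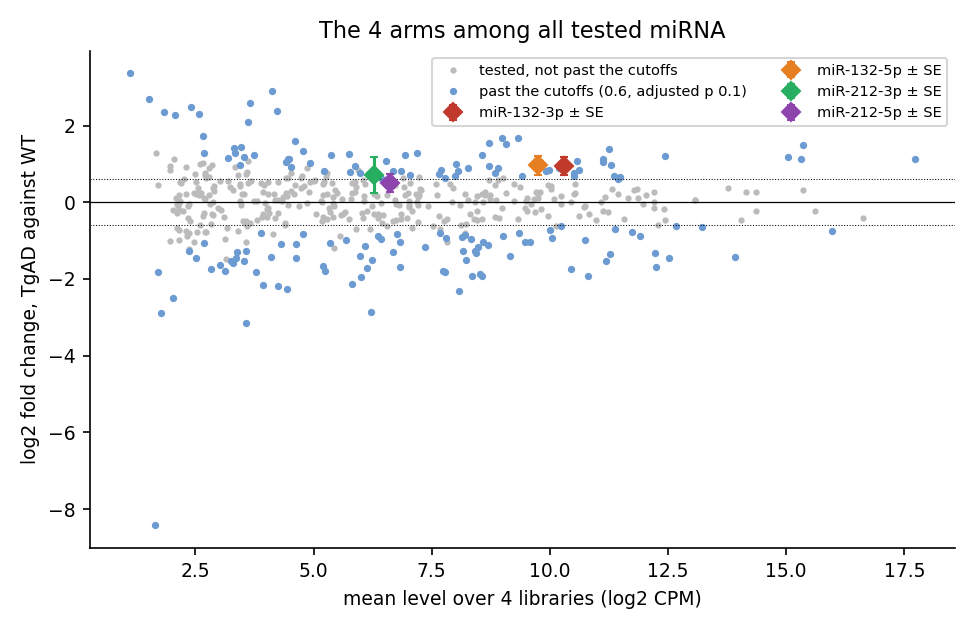
Log2 fold change of TgAD against WT for the 496 tested miRNA against mean level (log2 CPM), with the 4 members as diamonds with their standard errors and dotted lines at 0.6 and -0.6. Blue points passed both cutoffs, and the miR-132 arms, at 0.95 and 0.96, lie among many miRNA with changes of that size.

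The calls depended on which TgAD library was used. Relative to the WT mean, mmu-miR-132-3p was at 2.32-fold in TgAD replicate 1 and 1.53-fold in replicate 2, and mmu-miR-132-5p at 2.31-fold and 1.59-fold. mmu-miR-212-3p was at 2.38-fold in TgAD replicate 1, close to the miR-132 arms in that library, but at 0.893-fold in replicate 2. mmu-miR-212-5p was at 1.26-fold and 1.56-fold.

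Without TgAD replicate 1, the log2 fold change was 0.52 for mmu-miR-132-3p (padj = 0.111, edgeR) and 0.57 for mmu-miR-132-5p (padj = 0.114, edgeR). It was -0.26 for mmu-miR-212-3p (padj = 0.571, edgeR) and 0.54 for mmu-miR-212-5p (padj = 0.169, edgeR). Thus 0 of 4 members passed, against 10.1% of 536 tested miRNA that passed as higher. Here the 1 TgAD library left is assumed to vary as the WT libraries do.

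Without TgAD replicate 2, 3 members passed, against 11.5% of 531 tested miRNA. The log2 fold change was 1.24 for mmu-miR-132-3p (padj = 0.00800, edgeR), 1.24 for mmu-miR-132-5p (padj = 0.00896, edgeR) and 1.28 for mmu-miR-212-3p (padj = 0.0205, edgeR). mmu-miR-212-5p stood at 0.37 (padj = 0.391, edgeR). Both miR-132 arms passed without either WT library, where 9.46% of tested miRNA passed as higher without WT replicate 1 and 8.74% without WT replicate 2.

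With the columns of the normalized table taken by name, 0 of the 4 members passed on the recovered reads by edgeR, and 0% of 480 tested miRNA passed as higher. None of these columns holds the reads of WT replicate 2. No tested miRNA passed as lower either, while 54 had an unadjusted p under 0.05, none of them a member. The log2 fold changes were then 0.75 for mmu-miR-132-3p (padj = 0.647, edgeR) and 0.05 for mmu-miR-132-5p (padj = 0.963, edgeR). For mmu-miR-212-3p the value was -0.27 (padj = 0.915, edgeR), and for mmu-miR-212-5p 0.39 (padj = 0.797, edgeR).

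**Figure D3:**
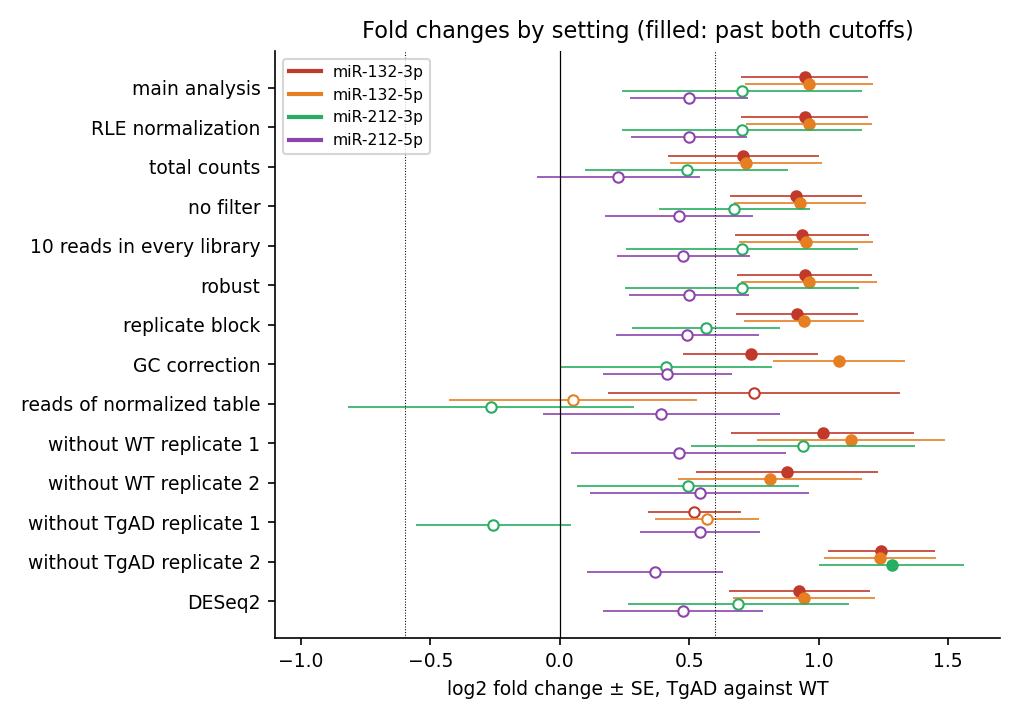
Log2 fold change with standard error (horizontal bars) of each member under the main analysis and under each alternative, filled where both cutoffs were passed. The miR-132 arms are filled in all settings but the reads of the normalized table and the fit without TgAD replicate 1, and miR-212-3p ranges from -0.27 to 1.28.

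With total counts as library size the median of all tested miRNA moved to -0.23, and the fold changes of the members moved with it, to 0.71 for mmu-miR-132-3p, 0.72 for mmu-miR-132-5p, 0.49 for mmu-miR-212-3p and 0.23 for mmu-miR-212-5p. The same 2 members passed, against 8.67% of tested miRNA. They also passed with DESeq2, the tool of the study, where 12.0% of the 499 miRNA with an adjusted p passed as higher.

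The GC content of the members was 50.0% for mmu-miR-132-3p, 45.5% for mmu-miR-132-5p, 54.5% for mmu-miR-212-3p and 47.8% for mmu-miR-212-5p. The median was 47.8% over the 441 tested miRNA with a sequence (88.9%). Over these miRNA, which share the same 4 libraries, GC content correlated with the log2 fold change (Spearman's rho 0.42) but hardly with the difference between the TgAD libraries (0.04) or between the WT libraries (0.09). Without TgAD replicate 1 the correlation with the log2 fold change was 0.36 over 474 miRNA. After each library was corrected for GC content both miR-132 arms still passed, with log2 fold changes of 0.74 and 1.08, against 15.7% of tested miRNA.

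Ratios between strands of one library do not depend on how libraries are scaled. Both strands of a hairpin come from the same precursor, and the strand that is kept is taken up by an Argonaute protein. For miR-132 the ratio of 3p to 5p reads was 1.38 and 1.56 in WT and 1.47 and 1.41 in TgAD. The 4 libraries lay close together, with the TgAD libraries between the WT libraries. The difference in mean log2 ratio, TgAD minus WT, was -0.03 (exact p = 1.0, two-sided exact permutation test over libraries, n = 2 each). With 2 libraries per genotype this test cannot go below 0.333.

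For miR-212 the ratio of 3p to 5p reads was 0.920 and 0.640 in WT, and 1.46 and 0.443 in TgAD. The TgAD libraries were the highest and the lowest of the 4, on either side of both WT libraries. As shares of the reads of both arms, the 3p arm made up 47.9% (95% Wilson interval 42.8 to 53.1) and 39.0% (34.4 to 43.8) in WT. It made up 59.3% (55.6 to 62.9) in TgAD replicate 1 and 30.7% (27.5 to 34.1) in TgAD replicate 2. These intervals cover counting error only, and those of the TgAD libraries do not overlap. The difference in mean log2 ratio between genotypes was 0.07 (exact p = 1.0, two-sided exact permutation test, n = 2 each), and without TgAD replicate 1 it was -0.79.

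**Figure D4:**
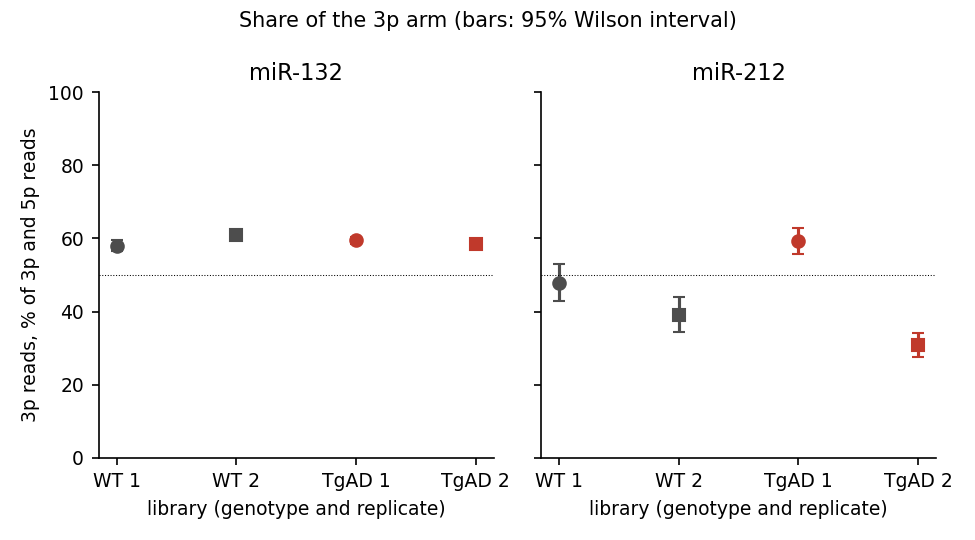
Share of 3p reads among the reads of both arms (in %) for miR-132 and miR-212 in each library, with 95% Wilson intervals for counting error and a dotted line at 50%. The share for miR-132 stays between 58.0% and 60.9%, whereas that for miR-212 runs from 30.7% to 59.3%, with the TgAD libraries at both ends.

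The arms of 138 miRNA could be compared in this way, with both arms tested. Between the TgAD libraries the log2 ratio of miR-212 differed by 1.71, and only 1 of the 138, miR-301b at 1.80, differed more. The median size of this difference was 0.429. None differed more among the 61 miRNA with at least 100 reads for each arm in each library, a minimum chosen after the values were seen. miR-132 differed by 0.05, less than 127 of the 138. Between the WT libraries the difference was 0.52 for miR-212 and -0.17 for miR-132, replicate 1 minus replicate 2.

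**Figure D5:**
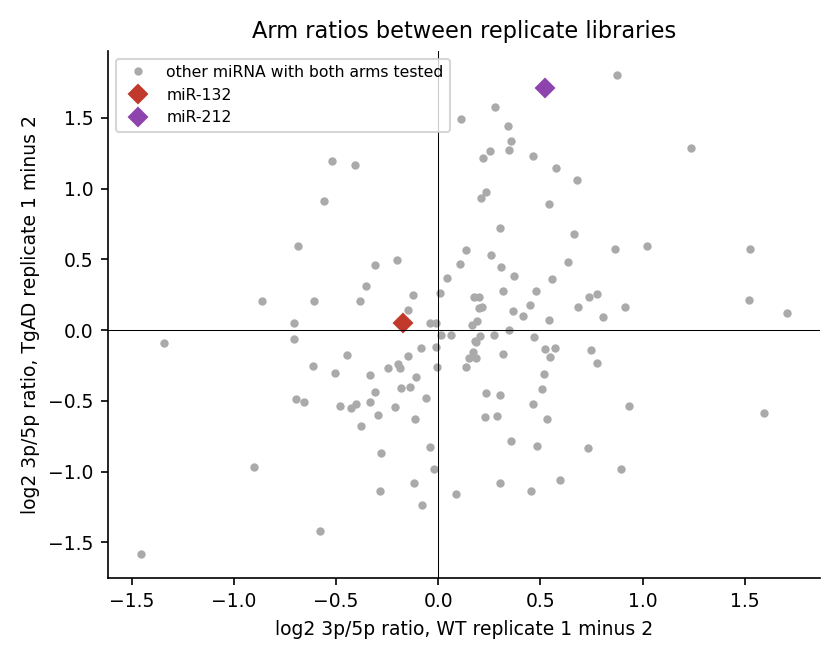
Difference in log2 3p/5p ratio between replicate libraries, WT replicate 1 minus 2 on the horizontal axis and TgAD replicate 1 minus 2 on the vertical axis, for 138 miRNA with both arms tested. miR-212 lies at the upper edge (1.71), and miR-132 lies near the origin (0.05).

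Between the hairpins, miR-132-3p was 13.0 and 16.0 times as frequent as miR-212-3p in WT, and 13.9 and 24.5 times in TgAD. Only TgAD replicate 2 stood above the rest. The difference in log2 ratio was 0.36 (exact p = 0.667, two-sided exact permutation test, n = 2 each). It was 0.77 without TgAD replicate 1 and -0.05 without TgAD replicate 2. miR-132-5p was 8.63 and 6.58 times as frequent as miR-212-5p in WT, and 13.8 and 7.70 times in TgAD, where TgAD replicate 1 stood above the rest (difference 0.45, exact p = 0.667, two-sided exact permutation test, n = 2 each). Without TgAD replicate 1 this difference was 0.030, and without TgAD replicate 2 it was 0.88.

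The 3p arms share a seed, so their levels can be added up as the supply of that seed. The sum was 1021 and 935 CPM in WT and 2271 and 1460 CPM in TgAD, a log2 ratio of means of 0.93, or 0.70 with total counts as library size. TgAD replicate 2 alone was at 0.58 over the WT mean on the log2 scale. mmu-miR-132-3p made up 92.8% and 94.1% of these reads in WT and 93.3% and 96.1% in TgAD, so the sum followed that arm. All 4 members summed to 1788 and 1586 CPM in WT and 3822 and 2582 CPM in TgAD, a log2 ratio of means of 0.92, or 0.61 with TgAD replicate 2 alone.

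In order of mean level, mmu-miR-132-3p was followed by mmu-miR-132-5p, mmu-miR-212-5p and mmu-miR-212-3p in both genotypes. Within the WT libraries the miR-132 arms did not overlap, and neither did the miR-212 arms, at 79.6 and 85.9 against 73.2 and 55.0 CPM. In TgAD the ranges of neighbouring arms overlapped for miR-132 and for miR-212. Within each library, however, miR-132-3p lay above miR-132-5p, with a ratio of 1.47 and 1.41 in TgAD. The order of the miR-212 arms was turned in TgAD replicate 1.

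The likeness of profiles was measured as the Euclidean distance between log2 CPM values over the 4 libraries, each profile centred on its mean. Nearest to mmu-miR-132-3p among the 496 tested miRNA was mmu-miR-132-5p, at 0.131, and the reverse held too. The next nearest were miR-6900-3p and miR-138-1-3p for mmu-miR-132-3p, and miR-6900-3p and miR-339-3p for mmu-miR-132-5p. miR-6900-3p had only 6 to 18 reads per library. The nearness of the miR-132 arms depended on TgAD replicate 1: over the other 3 libraries mmu-miR-132-5p was the 15th nearest to mmu-miR-132-3p, and mmu-miR-132-3p the 12th nearest to mmu-miR-132-5p.

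The arms of miR-212 were not near each other. mmu-miR-212-5p was the 193rd nearest miRNA to mmu-miR-212-3p, and mmu-miR-212-3p the 359th nearest to mmu-miR-212-5p. Nearest to mmu-miR-212-3p were miR-34c-3p at 0.032, with 10 to 29 reads per library, miR-490-3p and miR-1224-5p. The miR-132 arms came 16th (3p) and 19th (5p) from it. Nearest to mmu-miR-212-5p were miR-93-3p at 0.101, miR-99b-3p and miR-1198-5p. Without TgAD replicate 1 mmu-miR-212-5p was 269th from mmu-miR-212-3p and mmu-miR-212-3p was 254th from mmu-miR-212-5p, while the miR-132 arms fell to 238th (3p) and 244th (5p) from mmu-miR-212-3p.

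Of 10 other miRNA that neuronal activity is known to regulate, 8 were tested, of which 0 passed as higher and 1 as lower, against 15.7% and 17.3% of all tested miRNA, and the median log2 fold change was 0.04. Without TgAD replicate 1, 0 passed as higher and 2 as lower, miR-184-3p and miR-138-5p, against 10.1% and 16.6% of all tested miRNA, and the median was -0.47. The one that passed was miR-184-3p, with 31.9 and 29.5 CPM in WT and 8.75 and 5.22 CPM in TgAD (log2 fold change -2.16, padj = 0.0104, edgeR). miR-134-5p, which limits dendritic spine size, was at 1060 and 1050 CPM in WT and 1282 and 952 CPM in TgAD, and its log2 fold change was 0.08 (padj = 0.806, edgeR). miR-138-5p, another miRNA of dendritic spines, had a log2 fold change of -0.63 (padj = 0.226, edgeR).

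The other tested miRNA of this list had log2 fold changes of 0.00 for miR-485-5p, 0.20 for miR-129-5p, 0.10 for miR-188-5p, 0.20 for miR-146a-5p and -0.48 for miR-181a-5p. None of these passed with all 4 libraries. miR-129-5p had only 5 to 17 reads per library (standard error 0.631) and miR-181a-5p 29 to 33 (standard error 0.346), so these 2 values rest on few reads. miR-124-3p and miR-129-2-3p, with at most 7 reads in any library, were not tested.

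Of 11 other miRNA that are known to be low in the brain in Alzheimer's disease, as miR-132 is, 7 were tested, of which 4 passed as lower and 0 as higher, with a median log2 fold change of -1.05. Of all tested miRNA, 17.3% passed as lower and 15.7% as higher, and their median was 0.03. When TgAD replicate 1 was left out, the median log2 fold change of the list was -1.51, against -0.10 over all tested miRNA. An example of those that passed as lower with all libraries is miR-101a-3p, at 23683 and 27528 CPM in WT and 9988 and 8987 CPM in TgAD.

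In bulk neurons a change in the share of a cell type and a change in its RNA cannot be told apart. Of 8 neuronal marker miRNA, 5 were tested. With all libraries miR-128-3p was higher (log2 fold change 1.49) and miR-137-3p lower (-1.53), against 15.7% and 17.3% of all tested miRNA. Here the other 3 did not pass, with log2 fold changes of -0.63 for miR-138-5p, -0.38 for miR-153-3p and 0.35 for miR-218-5p. Which of the 5 passed depended on whether TgAD replicate 1 was kept. The median log2 fold change of these 5 was -0.38 with all libraries. It was -0.81 when TgAD replicate 1 was left out, against -0.10 over all tested miRNA. All 3 oligodendrocyte markers were at 0 reads. A marker at 0 reads does not show that its cell type was absent, as neuronal miR-9-5p and miR-9-3p were at 0 too. The 3 myeloid markers summed to 10.2 and 9.96 CPM in WT and 13.8 and 14.7 CPM in TgAD, with 1 of them at 0. The 4 vascular markers summed to 901 and 718 CPM in WT and 827 and 756 CPM in TgAD, with 2 of them at 0. The 2 erythroid markers summed to 1310 and 1331 CPM in WT and 957 and 646 CPM in TgAD. Of these, miR-451a, a miRNA of red blood cells, passed as lower, with a log2 fold change of -0.72 (padj = 0.0707, edgeR), and also without TgAD replicate 1 (-1.13). The 3 muscle markers summed to 2.19 to 4.46 CPM. The 1 myeloid and 2 vascular markers tested did not pass with or without TgAD replicate 1. The part of cell makeup in the result was not tested.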

How the data were processed

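Small RNA of 2 WT and 2 TgAD neuron cultures was sequenced with 50-base reads. The authors received reads with adapters removed from the sequencing provider, used Bowtie2 to map them to GRCm38 with no mismatch allowed, counted them on miRBase annotation with HTSeq, and deposited raw counts per mature miRNA for each library. They also deposited a table of normalized values, a signal made of counts that were scaled by 1 factor for each library. In it 100% of values were whole multiples of 1 read (tolerance 0.001), and the recovered reads were used in 1 alternative and to match its columns to the count tables. Its columns were taken by name, TR being read as transgenic.

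Here counts were analyzed with edgeR 4.0.16 in R 4.3.3 (limma 3.58.1), with TMM normalization, filterByExpr, which kept 496 miRNA, and the quasi-likelihood test with genotype as the only factor. Adjusted p (padj) follows Benjamini and Hochberg, over all miRNA tested. Standard errors were obtained as the absolute log2 fold change over the square root of F. Calls use the cutoffs of the study, a log2 fold change over 0.6 with padj under 0.1. Ratios of strands were tested with exact permutation tests with SciPy 1.17.1. A count of 0 allows up to 3 reads, and without molecular identifiers the intervals cover counting error only. The 2070204 to 4811010 reads per library limit the precision of miRNA with few reads.

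Alternatives were RLE normalization, total counts, no filter, at least 10 reads in every library, the robust option, DESeq2 1.42.0, the replicate number as a block, GC correction (local regression, span 0.75), the normalized table, 0.5 reads added to ratios, and each library left out in turn. Leaving TgAD replicate 1 out of sums, lists, profiles and the GC correlation was added after the data were seen. Named miRNA are the 4 members, any miRNA with a member's seed, the list of activity-linked miRNA, and the 3 tested miRNA with the nearest profile (prior count 2) per member. Other lists are given by counts, and miR-99a-5p, miR-301b and the examples from lists were named after their values were seen. The rule names the members and uses no value, but the locus and lists were chosen with earlier results of these data known. Sequences came from RefSeq and gene positions from GENCODE M21. No promoter of the locus was analysed here.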

Additional observations from a re-analysis of the deposited data

Results flagged for a closer look

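In the normalized table, the column that matches no count table (TR_2) held values of mmu-miR-132-3p and mmu-miR-212-5p above both columns named for WT. How many of the 674 miRNA do the same was not counted. Of the columns named for WT, WT_1 holds the reads of the library labelled TgAD replicate 1. mmu-miR-132-3p was at 8894 normalized counts in this column, against 5070 and 2336 in the columns named for WT and 3344 in TR_1. mmu-miR-212-5p was at 269, against 250 and 196 in the columns named for WT and 308 in TR_1. The other 2 members lay between the columns named for WT, mmu-miR-132-5p at 2884 (against 3460 and 1692) and mmu-miR-212-3p at 312 (against 365 and 180). In the same column the 3p arm made up 75.5% of the miR-132 reads (95% Wilson interval 74.5 to 76.5), whereas it made up 58.0% to 60.9% in the 4 count tables. These reads entered no main comparison, and the cause was not tested.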

How the results depend on the processing

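Of the 93 values recomputed under an alternative, 77 were counted as unchanged, by rules that differ. Fold changes had to keep their direction and their side of the cutoffs. The count of members that passed had to stay within 1.5 times the main count. Sums had to move by less than the SD of the log2 sums in TgAD. Ratio differences were judged by direction alone, so 0.030 against 0.45 for miR-132-5p to miR-212-5p counted as unchanged. With the normalized table the log2 fold changes were 0.75 for mmu-miR-132-3p, 0.050 for mmu-miR-132-5p and -0.27 for mmu-miR-212-3p, and 0 members passed. With it the differences in log2 ratio were 0.55 for miR-132 (3p to 5p), -0.69 for miR-212 (3p to 5p) and -0.27 for miR-132-5p to miR-212-5p. In this table the column WT_1 holds the library labelled TgAD replicate 1, and TR_2 holds the reads of no count table. No column holds WT replicate 2. The part of each in these values was not tested. Leaving out each library in turn gave log2 fold changes of 0.52 to 1.24 for mmu-miR-132-3p, 0.57 to 1.24 for mmu-miR-132-5p and -0.26 to 1.28 for mmu-miR-212-3p, and 0 to 3 members passed, the lowest values without TgAD replicate 1 and the highest without TgAD replicate 2. The differences in log2 ratio ranged from -0.11 to 0.059 for miR-132, from -0.79 to 0.92 for miR-212 and from -0.050 to 0.77 for miR-132-3p to miR-212-3p, and from 0.030 to 0.88 for miR-132-5p to miR-212-5p.

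The replicate number as a block (replicate block) gave 0.92 for mmu-miR-132-3p, 0.94 for mmu-miR-132-5p, 0.56 for mmu-miR-212-3p and 0.49 for mmu-miR-212-5p, changed no call of a member and moved the calls over all tested miRNA from 164 to 188. Differences between replicates correlated at 0.216 between genotypes over 496 miRNA, and the libraries share only a number. RLE normalization, the filters, the robust option, DESeq2, total counts and GC correction changed no call of a member. The log2 fold change of mmu-miR-212-5p was under the cutoff of 0.6 in every setting, and mmu-miR-212-3p rests on 160 to 418 reads per library.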
